A study of Rattus norvegicus with 12 samples.

Results

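High-frequency stimulation of the subthalamic nucleus (STN-HFS) was examined here as a single factor, 6 striatal arrays from stimulated rats against 6 from unstimulated rats, with L-DOPA treatment and sample number as further terms. The members were found from the labels, which mark every array as stimulated or not, and they are all 12 arrays of the series. The rule that assigns the arrays uses no measured value. Each array carried RNA of one striatal sample, labelled in one colour, and 20358 genes passed the filter on dim probes.

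All 12 male rats had a unilateral lesion of the nigral dopamine neurons with 9 µg of 6-hydroxydopamine (6-OHDA), so no intact animal is in the comparison. The 4 groups held 3 samples each. Rats of the 6-OHDA group had the lesion alone. For HFS rats the electrode ran without pause for 5 days, at a frequency of 130 Hz, an intensity of 60 µA and a pulse width of 80 µs. Rats of the DOPA group were injected 2 times per day over 19 days with L-DOPA (25 mg/kg) and benserazide (12.5 mg/kg). The DOPA/HFS group received that treatment and was stimulated for its last 5 days. Stimulated thus means HFS and DOPA/HFS, and unstimulated means 6-OHDA and DOPA. Per the study's methods, animals with an incomplete lesion or a misplaced electrode had been left out, the tissue was punched from dorsal striatum, and only the stimulated groups carried an electrode. Implantation and stimulation therefore cannot be told apart. Each of the 3 slides held 1 array of each group, and the stimulated groups always lay at the same positions of the slide, so array position and stimulation cannot be told apart either. The ages of the rats are not given in the sources used here.

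The subthalamic nucleus is a small glutamatergic nucleus that drives the output nuclei of the basal ganglia. It becomes overactive when the striatum loses its dopamine, and high-frequency stimulation there relieves akinesia. The striatum receives no dense projection from this nucleus. It is reached through loops over the output nuclei, thalamus and cortex, and through collateral pathways. It is made up mostly of GABAergic projection neurons, with interneurons, glia and vessels, and its medial border is the ciliated ependyma and germinal zone of the lateral ventricle, next to the choroid plexus.

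No gene passed the call rule, a Benjamini-Hochberg adjusted p under 0.1 in limma together with a fold over 1.2 or under 0.8, so 0% of the genes were called. The lowest adjusted p was 0.616. At an unadjusted p under 0.05, 523 genes were higher in stimulated striatum (2.57% of those tested) and 947 were lower (4.65%), where 2.5% in each direction would pass with no difference at all. Higher genes made up 35.6% of those past this threshold, and this split depended on the processing, since the authors' deposited log2 table gave 134 higher and 1607 lower (7.7% higher) and keeping outlier spots gave 179 and 1359. All 6 stimulated arrays lay above all 6 unstimulated arrays for 9 genes (0.0442%) and below them for 21 genes (0.103%). With no difference at all, a share of 0.00216 of fully measured genes would separate completely, in one direction or the other. That share is the smallest possible p of the exact Wilcoxon test. The 9 and 21 genes together did not exceed it, so these counts are no evidence of a difference. Genes lacking a value on any array could not be counted, but the percentages are of all genes tested. A lack of overlap in single genes below is a description only. The exact Wilcoxon test of 6 against 6 arrays called 0 genes after adjustment (lowest adjusted p 0.915), and without adjustment it passed 190 higher and 296 lower genes past the same fold limits. Its smallest possible p was 0.00216, so a gene could pass adjustment only if many genes separated completely. The median log2 difference over all genes was 0.004, with an SD of 0.244 across genes, and the median standard error of a gene's difference was 0.143. Every single gene described below is therefore given by its values and its unadjusted p, and none passed a correction for the number of genes tested.

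The signal level is given as log2 of the normalised signal, so a difference of 1 is a 2-fold difference. Levels are compared between arrays within a gene, never between genes. Each gene's 6 matched pairs, a stimulated and an unstimulated array of the same sample number and the same L-DOPA treatment, were also compared by an exact two-sided sign-flip permutation test, whose smallest possible p is 0.03125. Over all genes, 389 were higher and 555 lower in all 6 pairs. Genes named for their smallest p were chosen among these, so their agreement across pairs is no further evidence. Per the study's methods each array carried the sample of a different rat.

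The arrays themselves differed with stimulation before any gene was considered. Between 60% and 63.2% of spots were well above background on stimulated arrays and between 50.5% and 58.9% on unstimulated arrays, with no overlap (higher in 6 of 6 pairs, exact sign-flip permutation p = 0.03125). Signals too low for the scanner software to use, which it replaced with a surrogate, made up 21% to 25.8% of spots on stimulated and 25.6% to 35.2% on unstimulated arrays. DOPA/HFS replicate 3 stood apart with 4175 outlier spots, against 2 to 25 on the other 11 arrays, and its values at those spots were left out. Without that array 0 genes were called, 1018 were higher and 1515 lower at unadjusted p under 0.05. The markers of striatal projection neurons were strongly detected on all arrays, with a mean log2 level of 13.31 to 13.83 on stimulated and 13.44 to 13.75 on unstimulated arrays.

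The share of genes past the unadjusted threshold depended on signal level and on how a gene is named, and this is the background for every low-signal gene below. Among the 10984 genes with a RefSeq symbol, 2.91% were higher and 1.92% lower. Among the 9374 features that carry only the array design's name, mostly transcript sequences, 2.17% were higher and 7.85% lower. In the quartile of lowest signal, named genes were higher in 7.45% and lower in 1.31%, with a median difference of 0.106, while features without a symbol were higher in 3.45% and lower in 11.9%, with a median of -0.048. In the quartile of highest signal, named genes were higher in 1.29% and lower in 2.07%. The share of spots above background moved with stimulation in the same arrays, and its part in these shares was not tested.

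**Figure D1:**
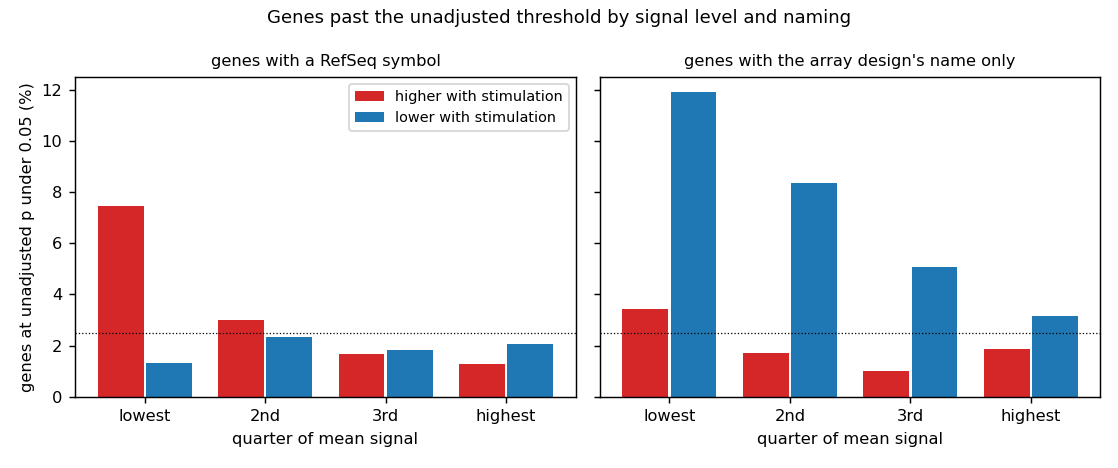
Percentage of genes at an unadjusted p under 0.05 in the stimulation main effect, higher (red) or lower (blue) with stimulation, by quartile of mean signal, for genes with a RefSeq symbol (left) and features with the array design's name only (right). The dotted line marks 2.5%, the share per direction with no difference; named genes pass it upward mainly in the quartile of lowest signal (7.45%, against 2.99% in the next) and features without a symbol pass it downward (11.9% there).

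Car4, a membrane-anchored carbonic anhydrase that interconverts CO2 and bicarbonate, had the smallest p among the named genes. Its log2 signal was 11.8, 11.35 and 11.48 in the 6-OHDA samples 1 to 3 and 11.03, 11.14 and 11.33 in DOPA, against 10.97, 10.64 and 10.72 in HFS and 10.68, 10.44 and 10.7 in DOPA/HFS. Every stimulated array lay below every unstimulated array. The fitted difference was -0.66 ± 0.11 (SE, n = 6 against 6), a fold of 0.632, with an unadjusted p of 0.000102 in limma and an adjusted p of 0.616. It was -0.76 without L-DOPA and -0.56 with it, and -0.59, -0.7 and -0.69 within slides 1, 2 and 3.

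Tnfrsf11b, which encodes osteoprotegerin, the secreted decoy receptor for RANK ligand, also showed no overlap. It measured 8.31, 7.88 and 7.8 in 6-OHDA and 8.02, 7.8 and 8.1 in DOPA, against 7.57, 7.25 and 7.52 in HFS and 7.71, 7.63 and 7.48 in DOPA/HFS. The difference was -0.46 ± 0.11 (SE), close in size without L-DOPA (-0.55) and with it (-0.37). Uxs1, which makes the UDP-xylose that starts glycosaminoglycan chains, differed by less but without overlap. Its signal was 10.57 to 10.79 on the unstimulated arrays and 10.15 to 10.47 on the stimulated arrays, a difference of -0.33 ± 0.09. These differences had an adjusted p of 0.616 in limma.

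Endothelin 1 (Edn1), the vasoconstrictor peptide of endothelial cells, was lower in each pair. It measured 7.31, 6.88 and 6.93 in 6-OHDA and 7.33, 7.35 and 7.36 in DOPA, against 6.38, 5.81 and 6.92 in HFS and 6.65, 6.76 and 6.81 in DOPA/HFS, a difference of -0.64 ± 0.15. The groups overlapped only through HFS replicate 3 at 6.92, which lay above the lowest unstimulated array at 6.88. The mural cell genes Rgs5 and Vtn were lower too, by -0.31 ± 0.11 and -0.3 ± 0.09, again in 6 of 6 pairs each. Of 8 tested markers of pericytes and smooth muscle these 2 were lower at unadjusted p under 0.05, as were 4.65% of all genes. None was higher, and the list median was -0.16. The other members lay between -0.26 (Kcnj8) and 0.1 (Myh11). None of 13 tested endothelial markers passed in either direction (median -0.02), and the mean level of the endothelial list was higher in 1 of 6 pairs.

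Further genes with symbols completed the group with the smallest p and a lower signal in all 6 pairs. The secreted serine protease Htra4 differed by -0.7 ± 0.15, the ciliary protein gene Cfap58 by -0.63 ± 0.14, the Ras pathway scaffold Shoc2 by -0.51 ± 0.12 and the Smad corepressor Skil by -0.46 ± 0.11. Entpd5, an endoplasmic reticulum nucleotidase, differed by -0.47 ± 0.13, Tbc1d23, a tether between endosomes and Golgi, by -0.45 ± 0.13, Scamp1, a protein of secretory carrier membranes, by -0.44 ± 0.11 and Esyt1, which tethers endoplasmic reticulum to plasma membrane, by -0.38 ± 0.1. These genes were well above background on all 12 arrays. For Scamp1 a further probe gave -0.05, and for Skil -0.29.

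Among genes higher with stimulation, Spata6l alone in the group named by smallest p had no overlap. Its log2 signal was 5.27, 5.48 and 5.61 in 6-OHDA and 5.16, 5.29 and 5.37 in DOPA, against 6.2, 5.9 and 6.04 in HFS and 6.26, 5.82 and 5.67 in DOPA/HFS. The difference was 0.62 ± 0.12 (SE), 0.59 without and 0.64 with L-DOPA, with an unadjusted p of 0.000511 in limma and an adjusted p of 0.616. The 3 slides gave 1.01, 0.48 and 0.36.

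Dync2h1, the heavy chain of the dynein that returns cargo along cilia, measured 4.61, 4.08 and 5.81 in 6-OHDA and 5.02, 3.91 and 4.48 in DOPA, against 5.17, 5.22 and 6.05 in HFS and 6, 5.11 and 6.49 in DOPA/HFS. Its difference was 1.02 ± 0.24, and it was well above background on 6 of 6 stimulated but only 1 of 6 unstimulated arrays. Spag1, needed to assemble ciliary dynein arms, differed by 0.75 ± 0.17 and was above background on 3 of 6 unstimulated arrays. Iqub, a protein of the ciliary axoneme, differed by 0.83 ± 0.2, at 6.67 to 8.04 on unstimulated and 7.21 to 8.6 on stimulated arrays. Nde1, a cytoplasmic dynein regulator needed for division of neural progenitors, differed by 0.46 ± 0.12, at 7.83 to 8.61 against 8.19 to 8.87.

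Cdt1, which licenses origins for DNA replication, differed by 0.72 ± 0.15. It measured 4.95 to 5.34 on 5 unstimulated arrays and 6.06 on 6-OHDA replicate 3, against 5.77 to 6.11 on stimulated arrays, and only 2 of the 6 unstimulated arrays were well above background. Galnt7, an initiator of O-glycosylation, differed by 0.69 ± 0.17 (above background on 4 of 6 unstimulated arrays), Cdc42ep3, an effector of Cdc42, by 0.43 ± 0.12, Adi1 of the methionine salvage pathway by 0.41 ± 0.1, Magt1, a magnesium transport and glycosylation protein, by 0.37 ± 0.09 and the nucleoside transporter Slc28a1 by 0.36 ± 0.1 (above background on 3 of 6 unstimulated arrays). The homeobox gene Msx3 passed the filter on dim probes through stimulated arrays alone, above background on all of them and on no unstimulated array. Its place among the higher genes is therefore no evidence of a difference. The lower bound of its fold was 1.29. That bound sets the stimulated mean against, on each unstimulated array, the lowest signal among probes well above background or the probe's own signal where that was higher. All of these were higher in 6 of 6 pairs, as the rule for naming them required, with an adjusted p of 0.616 in limma.

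**Figure D2:**
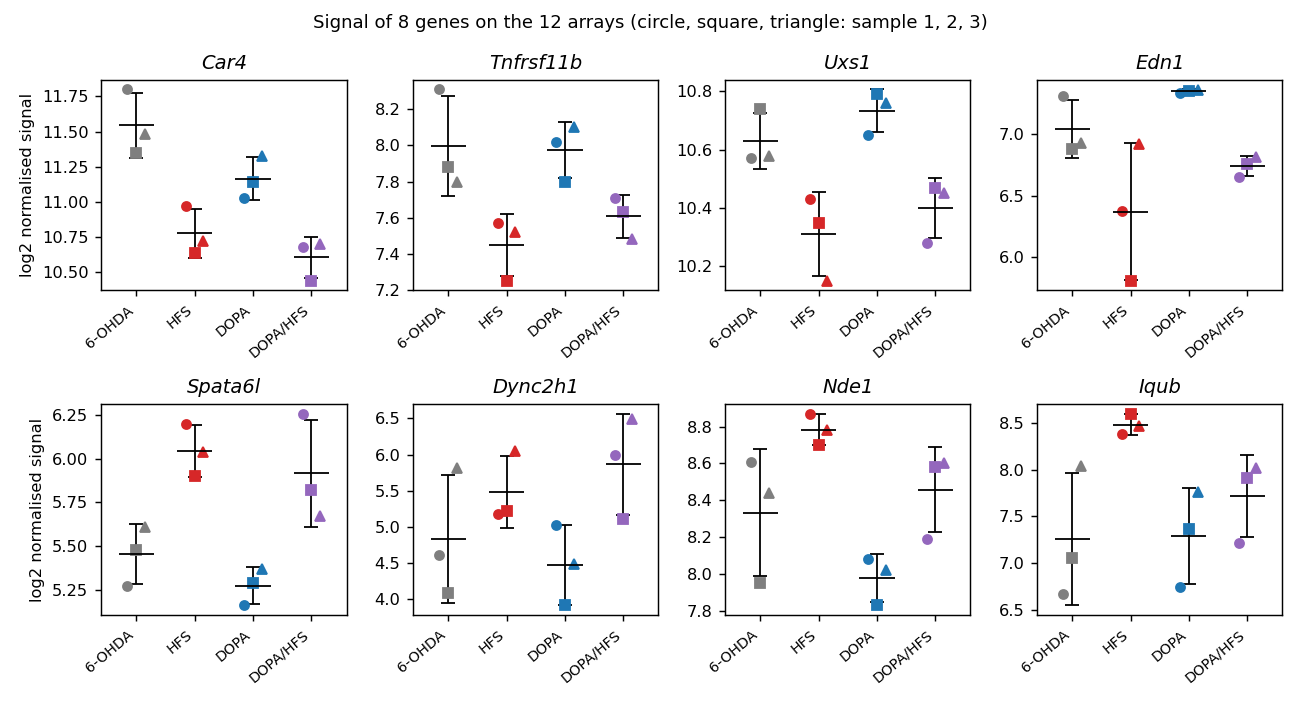
Log2 normalised signal of 8 genes on each of the 12 arrays, by group (circle, square and triangle are samples 1, 2 and 3; horizontal lines and bars are the group mean and SD, n = 3). Car4, Tnfrsf11b and Uxs1 lie lower, and Spata6l higher, on all 6 stimulated arrays (HFS and DOPA/HFS) than on all 6 others, while Edn1, Dync2h1, Nde1 and Iqub overlap.

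Genes with the largest differences were mostly dim or rested on few arrays. Hpgd, which inactivates prostaglandins, had the largest lower value among genes with a RefSeq symbol at unadjusted p under 0.05, -1.55 ± 0.34. It measured 8.3, 8.35 and 8.66 in 6-OHDA and 9.41, 9.04 and 9.19 in DOPA, against 6.6, 8.42 and 6.09 in HFS and 7.7, 8.35 and 6.47 in DOPA/HFS. Slide 2 differed from the others, with -0.31 there against -1.71 on slide 1 and -2.65 on slide 3. Galntl5 had the largest higher value among genes with a RefSeq symbol at that threshold, 1.86 ± 0.41, and was well above background on only 2 of 6 unstimulated arrays. Its signal was 3.26 to 4.03 in 6-OHDA, 4.54 to 6.44 in DOPA, 6.24 to 6.67 in HFS and 6.13 to 6.56 in DOPA/HFS, so that it was high in both stimulated groups and spread widely in DOPA.

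Myo5c, an unconventional myosin of secretory epithelia, differed by 1.56 ± 0.42. It measured 7.01 to 7.73 on the stimulated arrays and 5 to 5.82 on 5 unstimulated arrays, but 8.13 on DOPA replicate 1. Without that array its difference was 2.02 ± 0.18 with an adjusted p of 0.0221 in limma, the only named gene that any alternative moved past the threshold of the main comparison, and a further probe of the gene gave 0.44. Pard6g, a cell polarity protein, measured 4.3 to 4.92 on 5 stimulated arrays and 6.82 on HFS replicate 1, against 2.62 to 3.76 on unstimulated arrays. None of the unstimulated arrays was well above background, so Pard6g passed the filter on dim probes through stimulated arrays alone. By the bound used for Msx3, no fold over 1 could be set for Pard6g. Its place among the largest differences is therefore no evidence of a difference. The mitotic kinase gene Pbk differed by 1.26 ± 0.36 in 6 of 6 pairs, above background on 5 stimulated and 1 unstimulated array. Trim54, a muscle RING finger protein, differed by 1.44 ± 0.61 on 11 arrays and was at 8.59 on DOPA/HFS replicate 2. The remaining lower genes were Samd9 (-1.15 ± 0.42) and the olfactory receptor gene Or10am5 (-0.89 ± 0.29), both without a value on DOPA/HFS replicate 3, the Golgi protein gene Tmem87a (-0.92 ± 0.29) and the carotenoid-cleaving enzyme gene Bco1 (-0.9 ± 0.31).

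Genes of dividing cells and young neurons were the list with the highest share of members on one side. Of 13 tested members, 6 were higher at unadjusted p under 0.05 and 0 lower, 46.2% against 2.57% of all genes and 7.45% of named genes in the quartile of lowest signal. The median difference of the list was 0.32, 0.25 without and 0.39 with L-DOPA, against 0.004 over all genes. Cdk1, the kinase that drives entry into mitosis, Top2a, which untangles replicated DNA, and Ccna2, the cyclin of S phase and G2, turn over with the cell cycle. Mcm6 belongs to the replicative helicase. Dcx, doublecortin, binds microtubules in migrating neuroblasts, and Sox11 is a transcription factor of immature neurons.

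The stretches of DNA just before the start sites of Cdk1, Top2a and Mcm6 are shown because these cell cycle genes had higher values together. Each run is the 250 bases before the RefSeq start site in build GRCr8, read on the gene's own strand. Capitals mark 3 motifs known from promoters of cell cycle genes, searched on both strands: the cell cycle homology region CHR (TTTGAA or TTCGAA), the CCAAT box (CCAAT) and E2F (TTTCGCGC, TTTGGCGC, TTTCCCGC or TTTGCCGC).
Cdk1, chr20:19265043-19265292, plus strand: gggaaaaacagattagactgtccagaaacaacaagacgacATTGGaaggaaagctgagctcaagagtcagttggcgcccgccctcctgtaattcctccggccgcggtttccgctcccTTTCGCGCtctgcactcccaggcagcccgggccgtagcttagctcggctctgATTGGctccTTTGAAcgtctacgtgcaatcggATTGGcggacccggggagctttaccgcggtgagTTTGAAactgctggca
Top2a, chr10:84473094-84473343, minus strand: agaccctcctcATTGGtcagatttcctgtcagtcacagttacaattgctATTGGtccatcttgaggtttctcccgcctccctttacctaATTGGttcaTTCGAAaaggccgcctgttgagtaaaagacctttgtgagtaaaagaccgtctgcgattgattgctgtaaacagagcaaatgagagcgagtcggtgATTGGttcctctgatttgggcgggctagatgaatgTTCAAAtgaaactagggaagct
Mcm6, chr13:42404353-42404602, minus strand: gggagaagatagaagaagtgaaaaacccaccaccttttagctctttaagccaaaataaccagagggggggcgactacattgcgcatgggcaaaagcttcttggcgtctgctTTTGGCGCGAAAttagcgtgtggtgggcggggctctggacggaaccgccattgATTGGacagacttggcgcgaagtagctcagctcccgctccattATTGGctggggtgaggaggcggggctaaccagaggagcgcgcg

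Cdk1 and Top2a each held 2 CHR matches, with 3 and 4 CCAAT matches. Of 33465 promoter windows of that length, 17.4% held a CHR match, 34% a CCAAT match and 6.31% both. E2F matches, found in 1.73% of windows, lay once before Cdk1 and at 2 overlapping places before Mcm6. Mcm6 held no CHR match and 2 CCAAT matches. The window of Sox11 held 1 CHR and 1 CCAAT match, that of Dcx held none of the 3 motifs, and Ccna2 was not matched in the promoter table. A match in these letters is a description of the window and no evidence of a bound factor.

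Cdk1 measured 7.68, 9.04 and 8.46 in 6-OHDA and 8.06, 7.15 and 7.62 in DOPA, against 9.43, 8.95 and 8.62 in HFS and 8.92, 8.21 and 8.53 in DOPA/HFS. All 3 L-DOPA pairs were higher with stimulation, and without L-DOPA the pairs of slides 1 and 3 were higher and that of slide 2 slightly lower. The difference was 0.78 ± 0.26 (adjusted p 0.645 in limma, exact sign-flip permutation p = 0.0625). Top2a measured 6.29, 7.79 and 7.55 in 6-OHDA and 6.75, 6.08 and 6.28 in DOPA, against 8.32, 7.65 and 7.43 in HFS and 7.76, 7.35 and 7.12 in DOPA/HFS, a difference of 0.81 ± 0.28 that was positive in 4 of 6 pairs. Its 6-OHDA samples 2 and 3 were as high as the stimulated ones.

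Dcx measured 9.66, 9.91 and 10.2 in 6-OHDA and 9.62, 8.98 and 9.39 in DOPA, against 10.14, 10.3 and 10.08 in HFS and 10.31, 9.78 and 9.83 in DOPA/HFS. Its difference was 0.45 ± 0.16, 0.25 without L-DOPA and 0.64 with it, and 5 of 6 pairs were higher. Mcm6 differed by 0.32 ± 0.12 in 5 of 6 pairs, at 8.05 to 8.55 on unstimulated and 8.26 to 8.77 on stimulated arrays. Ccna2 differed by 0.82 ± 0.35 but was above background on only 1 unstimulated array, and Sox11 differed by 0.43 ± 0.18 on the 11 arrays that measured it, in 3 of 5 pairs. None of the other 7 tested members passed p under 0.05, with differences such as 0.29 for Mcm2, 0.22 for Ccnb1, 0.12 for Sox2, 0.01 for Pcna, -0.05 for Nes and -0.1 for Tubb3, and Mki67 did not pass the filter.

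The count for this list depended on slide 1. The mean level of its 11 members measured on all arrays was 8.08 in 6-OHDA and 8.93 in HFS on slide 1, but 8.87 and 8.76 on slide 2 and 8.61 and 8.6 on slide 3. With L-DOPA it was 8.27 and 8.77, 7.89 and 8.4, and 8.06 and 8.55 on slides 1, 2 and 3, higher with stimulation each time. Without the 4 arrays of slide 1, 0 of 13 members passed unadjusted p under 0.05, with a median of 0.23. Without slide 2 there were 4 and without slide 3 there were 6, with a median of 0.34 in each case. Leaving out single arrays gave 3 to 7 members, with 3 when 6-OHDA replicate 1, DOPA replicate 2 or DOPA/HFS replicate 1 was missing.

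A wider list of cell cycle genes, written after these values had been seen and therefore only a description, gave 16 members higher and 1 lower among 50 tested, with a median of 0.18. Of its 16, 12 were in the quartile of lowest signal, where 18 members lay. Aurkb, a kinase of chromosome segregation, differed by 0.61 ± 0.16 on 11 arrays and the kinetochore gene Spc25 by 0.6 ± 0.17 in 6 of 6 pairs. The ribonucleotide reductase subunit gene Rrm2 differed by 1.16 ± 0.34, above background on 5 stimulated and 1 unstimulated array. The G1 cyclin gene Ccnd1 differed by 0.31 ± 0.12 in 6 of 6 pairs, but a further probe gave -0.16. The 1 lower member was Ccne1, another G1 cyclin gene, at -0.3 ± 0.12, with 0.03 for a further probe. The lists of neuroblasts (14 tested, 2 higher, 0 lower, median 0.04) and of neural stem cells (12 tested, 0 higher, 1 lower, median 0.19) were written at the same time. Of all genes, 2.57% were higher and 4.65% lower.

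Ependymal markers moved with the list of dividing cells. Ependymal cells line the ventricle with motile cilia and border the germinal zone. Of 9 tested markers 1 was higher at unadjusted p under 0.05, as were 2.57% of all genes. Above 0 lay 8 of the markers, with a median of 0.52 in all, 0.52 without and 0.5 with L-DOPA. Foxj1, the master regulator of motile cilia, measured 10.43, 12.6 and 11.54 in 6-OHDA and 11.27, 10.74 and 11.1 in DOPA, against 12.45, 11.62 and 12.01 in HFS and 11.97, 11.22 and 11.69 in DOPA/HFS, a difference of 0.55 ± 0.33 (exact sign-flip permutation p = 0.219). The microtubule protein gene Tekt1 differed by 0.41 ± 0.17, the axonemal genes Spef2 by 0.81 ± 0.37 and Rsph1 by 0.65 ± 0.31, and only Tekt1 passed unadjusted p under 0.05. Mia was the exception at -0.32 ± 0.19.

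The order of arrays was alike in both lists. The mean level of the ependymal list was 7.56, 9.24 and 8.58 in 6-OHDA, 9.4, 8.68 and 8.79 in HFS, 8.4, 7.77 and 8.29 in DOPA and 8.9, 8.36 and 8.49 in DOPA/HFS. In both lists 6-OHDA replicate 2 was the highest unstimulated array, HFS replicate 1 was the highest stimulated array, and the pair of slide 2 without L-DOPA was lower with stimulation. Its summed linear signal spanned 3290 to 14500 on unstimulated and 6050 to 13600 on stimulated arrays. The level of ependymal markers thus moved with that of the cell cycle genes, and its part in their result was not tested. Fewer cells of a type and less RNA per cell cannot be told apart in such tissue samples.

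A list of ciliary and axonemal genes chosen by symbol after the values were seen had 99 tested members, of which 12 were higher and 1 lower (Cfap58) at unadjusted p under 0.05, with a median of 0.21. That is 12.1% higher, against 2.57% of all genes, and 7 of the 12 lay in the quartile of lowest signal, where 26 members were tested and 7.45% of all genes with a symbol were higher. Gas2l2, which links microtubules and actin at ciliary bases, gave a p of 0.000352 in limma on the 11 arrays that measured it. It was above background on 5 stimulated and no unstimulated array, and at least 1.21-fold higher. Gas2l2 thus passed the filter on dim probes through stimulated arrays alone, so its place in the count is no evidence of a difference. Dnah2, a dynein arm heavy chain, differed by 0.41 ± 0.13 and Dync2li1, a light chain of the cilium's return motor, by 0.26 ± 0.09, each higher in 6 of 6 pairs.

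Choroid plexus genes varied widely between arrays. Their median was 0.86 over 12 tested markers, 1.78 without L-DOPA and -0.13 with it. Ttr, transthyretin, the carrier protein that the choroid plexus secretes in bulk, measured 6.23, 6.59 and 5.8 in 6-OHDA, 16.3, 11.86 and 15.28 in HFS, 2.41, 10.29 and 13.81 in DOPA and 8.28, 9.25 and 2.79 in DOPA/HFS. Its difference over all arrays was 3.11 ± 2.44 (exact sign-flip permutation p = 0.406). All HFS arrays were above all 6-OHDA arrays for Ttr, for the secreted inhibitor Sostdc1 (7.97 to 12.44 against 5.5 to 5.68) and for the potassium channel gene Kcnj13 (5.72 to 9.9 against 2.72 to 2.92), whereas the DOPA and DOPA/HFS arrays overlapped for each. The autotaxin gene Enpp2 alone passed unadjusted p under 0.05 over all arrays, at 0.55 ± 0.22. The mean level of the list was 5.65 to 8.71 on unstimulated and 5.81 to 10.1 on stimulated arrays. Of the 23 genes on that list, 9 did not reach the filter although they are on the array, among them Kl, Cldn2, Prlr and Kcne2. The part of this tissue in other results was not tested.

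**Figure D3:**
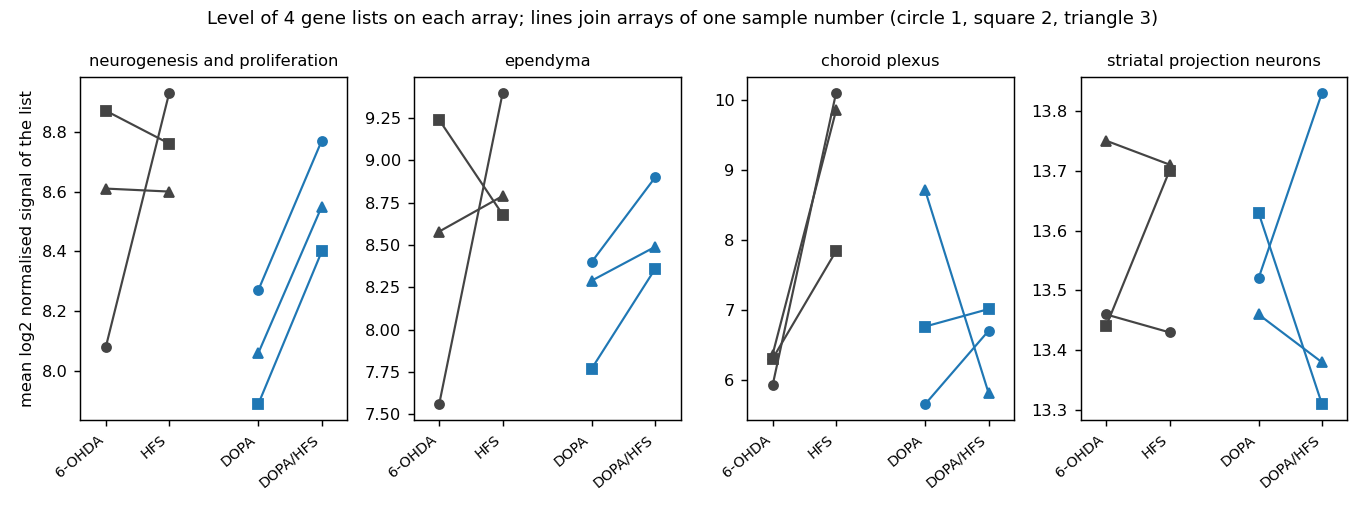
Mean log2 normalised signal of 4 gene lists on each array; each line joins the unstimulated and stimulated arrays of one sample number, without L-DOPA (dark) and with L-DOPA (blue), over members measured on all arrays. The dividing-cell and ependymal lists run alike, with the slide 2 pair without L-DOPA going down in both, the choroid plexus list spans 5.65 to 10.1, and the list of striatal projection neurons stays between 13.31 and 13.83.

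The neurons that make up most of the striatum showed little difference. For this and the following lists, 2.57% of all genes were higher and 4.65% lower at unadjusted p under 0.05. A count of a few members past that threshold is given as a description and not read as a result about the list. None of 17 shared markers of projection neurons passed unadjusted p under 0.05, and their median was -0.01. Among 6 tested markers of direct pathway neurons only Ebf1, a transcription factor needed for their development, was lower. It measured 9.81 to 10.52 on unstimulated and 9.32 to 9.76 on stimulated arrays without overlap, a difference of -0.48 ± 0.14 (adjusted p 0.616 in limma, exact sign-flip permutation p = 0.0312). The indirect pathway list (5 tested, median -0.04), cholinergic interneurons (8 tested, -0.01), GABA interneurons (9 tested, 0.09) and 9 cortical markers (-0.03) had none past the threshold.

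Dopamine handling gave 1 gene in each direction among 7 tested. Ddc, the decarboxylase that turns L-DOPA into dopamine, measured 11.21 to 12.1 on unstimulated and 10.42 to 11.82 on stimulated arrays, -0.41 ± 0.17. Maob, which oxidises dopamine in glia, differed by 0.41 ± 0.17, at 9.59 to 9.92 against 9.43 to 10.6. Of 11 dopamine and adrenergic receptor genes none passed (median 0.02).

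Of 7 tested acetylcholine receptor genes, Chrna7, the calcium-permeable nicotinic subunit, was higher by 0.37 ± 0.11 in 6 of 6 pairs (9.19 to 9.51 against 9.4 to 9.91), and the muscarinic receptor gene Chrm3 was lower by -0.61 ± 0.23 in 5 of 6. Gabra5, a subunit of extrasynaptic GABA-A receptors, was the only 1 of 18 GABA genes past the threshold, at 0.43 ± 0.16. None of 13 ionotropic (median 0.05) or 7 metabotropic glutamate receptor genes (0.12), 14 voltage-gated calcium channel genes (-0.11) or 18 genes of synaptic vesicle release (-0.02) passed.

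Calcium-dependent enzymes gave 1 higher and 2 lower of 21, beside 2.57% and 4.65% of all genes. Prkcd, the delta isoform of protein kinase C, measured 12.36, 11.48 and 12.15 in 6-OHDA and 12.79, 12.69 and 12.95 in DOPA, against 11.28, 11.4 and 11.49 in HFS and 11.93, 12.37 and 12.73 in DOPA/HFS. It was lower in all 6 pairs, by -0.54 ± 0.16 over all arrays while the stimulated and unstimulated arrays overlapped. Ppp3cb, a catalytic subunit of calcineurin, was lower by -0.29 ± 0.13 in 6 of 6 pairs. PRKCQ, spelled so in the array design, was higher by 0.46 ± 0.17.

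Among neurotrophic genes Cntf, ciliary neurotrophic factor, was lower in all pairs, at 7.57 to 8.15 on unstimulated and 7.29 to 7.89 on stimulated arrays (-0.4 ± 0.13). Gdnf, the survival factor of dopamine neurons, gave -0.57 ± 0.22 on 11 arrays, -0.18 without and -1.09 with L-DOPA, and 0.1 ± 0.6 when outlier spots were kept. These were the 2 of 15 neurotrophic genes past the threshold, and their list had a median of -0.08. Igfbp5, a binding protein of insulin-like growth factors, was the 1 of 11 genes of that system past it, at 0.54 ± 0.2. Of 23 genes of BMP signalling, the ligands Bmp6 (0.35 ± 0.14) and Bmp7 (0.27 ± 0.1) were higher, with a list median of -0.06. Gpc3, a glypican that binds such ligands, was lower (-0.36 ± 0.14), but a further probe gave 0.04.

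Class II histocompatibility genes had a higher median than most lists, and glial lists had single members past the threshold. Cd74, the invariant chain of class II histocompatibility molecules, measured 5.83 to 7.83 on unstimulated and 6.53 to 8.64 on stimulated arrays, 0.91 ± 0.32, and RT1-Db1, a class II chain, differed by 0.53 ± 0.15 on 11 arrays. These were 2 of 5 tested class II genes (40%, against 2.57% of all genes), with a list median of 0.53, 0.63 without and 0.1 with L-DOPA. The complement gene C3 was the 1 of 8 astrocyte reactivity genes past the threshold (0.8 ± 0.29), Aldoc, a glycolytic enzyme of astrocytes, the 1 of 13 astrocyte genes (0.32 ± 0.12) and Mbp, myelin basic protein, the 1 of 16 oligodendrocyte genes (0.49 ± 0.21 on 11 arrays, with 1 saturated). Ptprc, which encodes the leukocyte antigen CD45, was the 1 of 13 microglial genes. It was above background on 5 stimulated and no unstimulated array, at least 1.02-fold higher. Ptprc thus passed the filter on dim probes through stimulated arrays alone, so its place in the count is no evidence of a difference. The medians of these lists were 0.1, 0.05, 0.03 and 0, and 15 interferon-response genes (median 0.15) had none.

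Genes of acute neuronal activity, which answer within minutes to hours, were not shifted as a group although the rats were killed as stimulation ended, per the study's methods. Of 29 tested, Per1 was higher by 0.39 ± 0.16 and Btg2 lower by -0.45 ± 0.18, and the median was -0.08, 0.07 without and -0.19 with L-DOPA. Per1 is also a glucocorticoid target, and with the kinase gene Sgk1 (0.33 ± 0.13) it made up the 2 of 8 glucocorticoid-response genes past the threshold, whose median was 0.08.

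Housekeeping lists had narrow medians. Of 83 cytoplasmic ribosomal protein genes 5 were higher and 0 lower (6.02% higher, against 2.57% of all genes, median 0.08). Among these, Rpl7a and Rps4x were higher in 6 of 6 pairs, by 0.31 ± 0.1 and 0.26 ± 0.1, and Rpsa in 5 of 6, by 0.26 ± 0.11. Rpl7a was saturated on 1 array, and such probes can share signal with processed pseudogenes. Of 79 respiratory chain genes Ndufb11 was higher and Cox6c and Atp5mg were lower (median -0.01), and of 36 proteasome genes Psma7 was higher (median 0.04). The lists of heat shock and unfolded protein response (19 tested, median 0.05), apoptosis (16, -0.02), sirtuins (7, 0.01), reference genes (10, 0.04), leptomeninges (11, 0.19) and red blood cells (4, 0.09) had no member past the threshold.

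**Figure D4:**
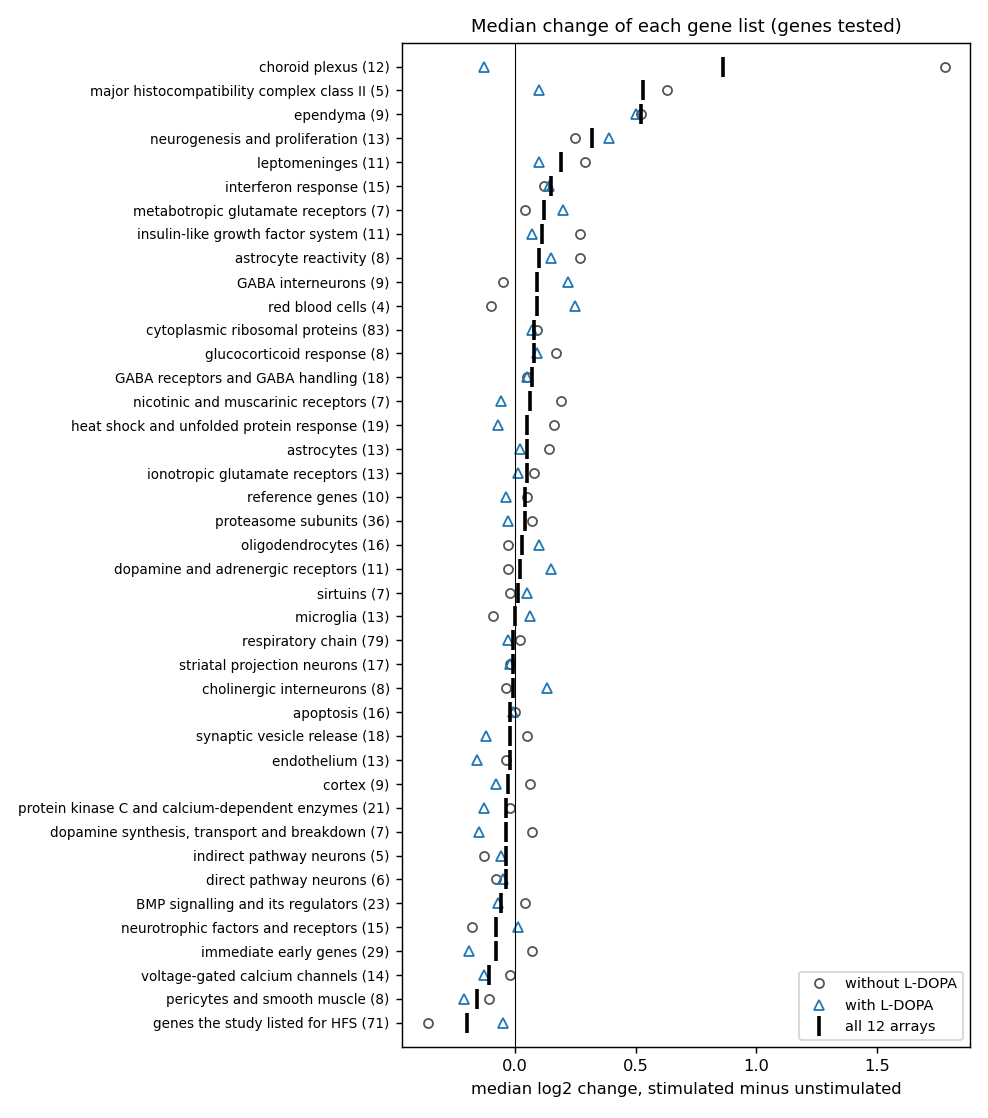
Median log2 difference, stimulated minus unstimulated, of 41 gene lists over all 12 arrays (black bars), without L-DOPA (circles) and with L-DOPA (triangles), with the number of genes tested in parentheses. Choroid plexus reads 1.78 without and -0.13 with L-DOPA, ependyma 0.52 and 0.5, and dividing cells and young neurons 0.25 and 0.39; most other medians lie within 0.2 of 0.

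The effect of stimulation was then set side by side without L-DOPA (HFS minus 6-OHDA) and with it (DOPA/HFS minus DOPA), comparisons that share no array but share slides and array positions. Neither called a gene in limma. Without L-DOPA 293 genes were higher (1.44%) and 357 lower (1.75%) at unadjusted p under 0.05, with a lowest adjusted p of 0.98. With L-DOPA 457 were higher (2.24%) and 768 lower (3.77%), with a lowest adjusted p of 0.341. Across genes, which are not independent replicates, the effects correlated with r = 0.219, and 59.1% of genes had the same sign. Of the 650 genes past unadjusted p under 0.05 without L-DOPA, 460 (70.8%) had the same sign with it. In both comparisons 78 genes passed with the same sign and 14 with opposite signs.

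The study had listed 71 genes for HFS against 6-OHDA, chosen on 6 of these 12 arrays, so their values in that comparison are no independent evidence. The study also measured some of them by RT-qPCR in other animals. It reported the changes of Ttr, Sostdc1, Igf2, Chrna7 and Prkcd there, while the decrease of Sirt5 did not reach significance. All 71 were tested here, with 7 higher and 21 lower at unadjusted p under 0.05 in the main effect. Of all genes, 2.57% were higher and 4.65% lower. The main effect includes the 6 arrays used for the choice, so these counts are no independent evidence either. The median of the listed genes was -0.36 without L-DOPA. It was -0.05 on the 6 arrays with L-DOPA that had not been used to choose them. Without L-DOPA 48 members passed unadjusted p under 0.05, beside 3.19% of all genes, and with L-DOPA 6.02% of all genes passed. Of these 48, 28 (58.3%) had the same sign with it and 4 also passed there. Among all genes past that threshold the same sign was found in 70.8%. Car4, Tnfrsf11b, Edn1, Entpd5, Spata6l, Iqub, Galntl5, Ebf1, Prkcd, Vtn, Chrna7, Gpc3, Btg2, Ttr, Sostdc1 and Nr4a3 belong to that list. Foxq1, a forkhead factor (-0.72 without and -0.24 with L-DOPA), and Slc39a8, a zinc transporter (-0.77 and -0.41), kept their direction, whereas Nfil3, a basic leucine zipper repressor, gave 0.69 without and -0.05 with L-DOPA.

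**Figure D5:**
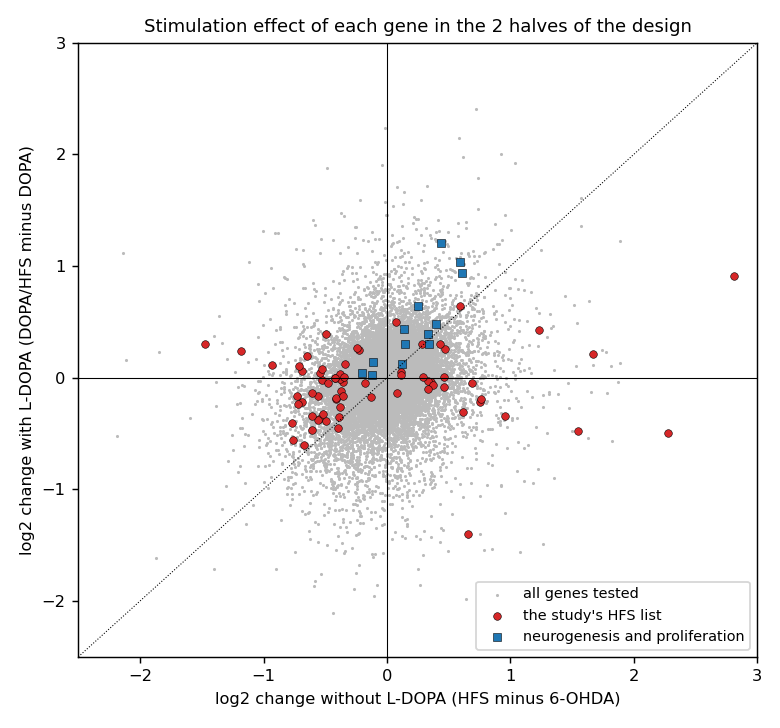
Log2 difference with stimulation of each gene without L-DOPA (horizontal) and with L-DOPA (vertical) for all 20358 genes tested (grey), the 71 genes the study listed for HFS (red) and the list of dividing cells and young neurons (blue squares). Study-listed genes spread along the horizontal axis, on which they were chosen, with medians of -0.36 and -0.05, and 16 genes lie outside the axes.

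The interaction of stimulation with L-DOPA, the test of whether these effects differ, called 0% of the genes (limma, lowest adjusted p 1), and 540 genes (2.65%) passed unadjusted p under 0.05. Nr4a3, an orphan nuclear receptor induced by neuronal activity, measured 8.47, 8.1 and 7.95 in 6-OHDA and 10.23, 9.85 and 9.1 in HFS, but 8.58, 8.65 and 8.88 in DOPA and 8.06, 8.34 and 8.27 in DOPA/HFS. HFS stood above the 3 other groups, without overlap. Its difference was 1.55 without L-DOPA and -0.48 with it (interaction adjusted p 1 in limma). The actin-bundling gene Pls3 went from 0.36 to -0.99, the cation exchanger gene Slc24a5 from 0.3 to -1.59, the fatty acid activating enzyme gene Acsm5 from 0.93 to -0.97 and Or10am5 from -0.25 to -1.75, and each of these 5 had an adjusted interaction p of 1 in limma. L-DOPA itself called 0 genes as a main effect in the same fit, where 744 genes passed unadjusted p under 0.05 and no adjusted p was below 0.116.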

How the data were processed

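Intensities were deposited by the authors as scanner output of one-colour Agilent rat arrays, made with Agilent Feature Extraction (9.1 per the labels), which had removed background and spatial trends within each array. The authors' deposited log2 table served as an alternative. Outlier and control spots were left out, the processed signal was put on a log2 scale, quantile normalised, and averaged over spots of a probe. A probe had to be well above background in at least 0.4 of the arrays, which left 20358 genes, each represented by its brightest probe. Of 41012 probes, 20977 kept the design's name and the others were named through RefSeq. The array number limits precision: 12 arrays left 7 residual degrees of freedom.

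Groups came from the labels. limma 3.58.1 in R 4.3.3 fitted stimulation, L-DOPA and sample number, which is the slide. Deviations of same-numbered arrays from their group means correlated between -0.287 and 0.476 (median 0.112, against -0.069 across numbers). The fit was tested on simulated data. Genes were named by rule: with a RefSeq symbol, the 12 smallest p in each direction with one sign in all 6 pairs and above background on all arrays of the higher condition, the 5 largest differences in each direction at unadjusted p under 0.05, the 5 smallest interaction p, and list members. Other genes named were chosen after their values were seen. The 41 gene lists and the comparison were chosen with earlier results of these data known, and 4 lists were added later. Alternatives were other scaling, background correction, filters, probe rules, models, tests, thresholds and arrays left out. No column of the authors' own comparisons was used. Values of some single list members are not reported here.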

Additional observations from a re-analysis of the deposited data

Results flagged for a closer look

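Over 101 groups of 6 arrays, the highest or lowest array was looked at for a value far from the rest by Dixon's criterion, and 8 stood out, where chance gives about 5%. DOPA/HFS replicate 3 held 3 of them, with 4175 outlier spots (2 to 25 on the other stimulated arrays), 238 saturated spots (66 to 93) and a lowest signal of 7.36 (3.65 to 4.63). DOPA replicate 2 had a mean local background of 49.6 (47.7 to 48.4 on the other unstimulated arrays). Cdt1 measured 6.06 on 6-OHDA replicate 3 (4.95 to 5.34), Myo5c 8.13 on DOPA replicate 1 (5 to 5.82) and Pard6g 6.82 on HFS replicate 1 (4.3 to 4.92 on the other stimulated arrays). The choroid plexus list had a mean level of 8.71 on DOPA replicate 3 (5.65 to 6.76).

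Every pair without L-DOPA went one way and every pair with L-DOPA the opposite way for Nr4a3 (1.55 and -0.48, interaction -2.04) and Acsm5 (0.93 and -0.97, interaction -1.9). The interaction was tested in limma, with an adjusted p of 1 for both genes.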

How the results depend on the processing

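The count of 0 called genes in the main effect held under 28 settings, and the interaction called 0 genes under all 20. Under a stricter adjusted p limit or without fold limits the main effect could only call 0, since its lowest adjusted p in limma was 0.616. The adjusted Wilcoxon test, with a smallest possible p of 0.00216, could call a gene only if many genes separated completely. Without DOPA replicate 1 the main effect called 2 features, Myo5c (2.02) and one with no symbol, so leaving out single arrays gave 0 to 2, and the exact Wilcoxon test without adjustment passed 486. The contrast without L-DOPA called 2 with no filter on dim probes and 0 to 1 on leaving out single arrays (Galntl5 without DOPA replicate 3). The contrast with L-DOPA called 1 with the deposited log2 table, 1 with outlier spots kept and 0 to 1 on leaving out single arrays.

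Genes higher at unadjusted p under 0.05 numbered 134 with the deposited table, 1059 with no filter and 179 with outlier spots kept. Leaving out single arrays gave 397 to 1018 (802 without HFS replicate 1, 1018 without DOPA/HFS replicate 3) and leaving out slides 355 to 742. Lower genes numbered 1607 with the deposited table and 2663 with no filter, 636 to 1515 on leaving out single arrays and 399 to 1154 on leaving out slides. The share of higher genes among those past the threshold was 35.6% with quantile normalisation, 34.2% with 75th percentile scaling, 34.7% with normexp and 7.7% with the deposited table. The cause was not tested.

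Without the replicate block, 373 genes were higher and 582 lower, and 0 were called. Of 12 arrays, 5 correlated best with an array of their own sample number.

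Of the 13 tested genes of dividing cells and young neurons, 3 were higher with the deposited table, 3 with outlier spots kept, 3 to 7 on leaving out single arrays and 0 to 6 on leaving out slides. Acsm5 turned from -0.02 to 0.01 with normexp, 0.25 with array weights, -0.25 to 0.22 on leaving out single arrays (0.12, 0.06 and 0.16 without DOPA replicates 1, 2 and 3, 0.09, 0.03 and 0.22 without DOPA/HFS replicates 1, 2 and 3) and -0.26 to 0.19 on leaving out slides. With outlier spots kept, Or10am5 turned to 0.12 and Gdnf to 0.1. The other 2076 values of single genes kept direction and side of the threshold, except Myo5c as above. Of the medians of gene lists 15 moved and 1155 did not. With 12 arrays and signals near background, differences of dim genes are the least certain.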
